A study of Homo sapiens with 6 samples.

Results

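Hepatocyte identity transcription factors are the DNA-binding proteins that switch on and maintain the gene programme of the liver parenchymal cell, and 8 of them were followed here: HNF4A, NR1H4, FOXA1, FOXA2, FOXA3, CEBPA, ONECUT1 and PROX1. They were taken by gene symbol from a table of 22077 genes, and all 8 had a row and passed the filter on low counts that left 14162 genes for testing. The libraries were RNA-seq libraries of total RNA from cultured hepatocellular carcinoma (HCC) cells, 3 from cells overexpressing transketolase (TKT), an enzyme of the non-oxidative pentose phosphate pathway, and 3 from cells with the empty vector. The labels give the overexpression libraries the genotype over-expression and the control libraries the genotype wt. The labels spell the cell line Hu7, and it was taken as Huh7, a human HCC line that the study's Results name for the RNA-seq. The Methods of the study name HCCLM3, another HCC line, instead. The TKT plasmid carried GFP and a puromycin resistance gene, and transfected cells were selected. No source used here says that a single clone was picked. The study's methods say in general that experiments were repeated independently, but no source used here says whether these replicates were separate transfections, so p-values measure the spread between these samples, which may be technical. The question addressed here is whether this network of factors differed between TKT-overexpressing and control cells.

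The factors work as an interlocked circuit. FOXA proteins are forkhead pioneer factors that open liver enhancers, HNF4A is the nuclear receptor that governs most hepatocyte-specific genes, and CEBPA is a leucine zipper factor of metabolic and growth-arrest genes. ONECUT1 (HNF6) acts in hepatocyte and bile duct development, PROX1 is a homeodomain protein of hepatoblasts that also acts as a corepressor of nuclear receptors, and NR1H4 (FXR) is the bile acid receptor. In the adult liver these factors bind one another's promoters and enhancers.

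The promoters of HNF4A and CEBPA, the members that fell by the test, are shown, those of HNF4A as alternative promoters that a count per gene pools. The HNF4A windows are chr20:44355449-44355698, the distal promoter known as P2, and chr20:44400989-44401238, the proximal promoter known as P1, both on the plus strand of GRCh38.p14. The CEBPA window is chr19:33302535-33302784 on the minus strand. Each holds the 250 bases before a RefSeq start site, 5′ to 3′, with matches to a searched motif in capitals.
HNF4A distal promoter: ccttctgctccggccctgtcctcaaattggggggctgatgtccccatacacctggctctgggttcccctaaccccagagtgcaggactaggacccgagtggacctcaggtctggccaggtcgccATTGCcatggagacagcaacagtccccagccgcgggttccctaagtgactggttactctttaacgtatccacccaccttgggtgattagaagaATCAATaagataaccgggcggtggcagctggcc
HNF4A proximal promoter: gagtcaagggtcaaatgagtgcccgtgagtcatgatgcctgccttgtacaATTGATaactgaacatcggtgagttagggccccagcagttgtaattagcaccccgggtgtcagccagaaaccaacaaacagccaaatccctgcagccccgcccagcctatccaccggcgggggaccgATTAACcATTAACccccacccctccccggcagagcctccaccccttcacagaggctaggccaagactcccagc
CEBPA promoter: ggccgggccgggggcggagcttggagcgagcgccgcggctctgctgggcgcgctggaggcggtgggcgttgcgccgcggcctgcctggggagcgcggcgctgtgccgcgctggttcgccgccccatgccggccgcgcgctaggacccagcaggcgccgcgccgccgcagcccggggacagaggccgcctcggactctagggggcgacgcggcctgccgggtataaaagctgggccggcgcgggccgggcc
The motifs, searched on both strands, with matches in the members that did not overlap one another, were AGGTCA (nuclear receptor half-site), TGTTTAC (forkhead site), GCAAT (C/EBP half-site), ATCAAT (ONECUT core) and GTTAAT (homeodomain half-site). In the distal HNF4A promoter, GCAAT matched on the minus strand at -126 and ATCAAT on the plus strand at -33, counted from the start site. In the proximal HNF4A promoter, ATCAAT matched on the minus strand at -200, and GTTAAT matched on the minus strand at -73 and again at -66. The CEBPA window held none of the 5 motifs. Of 35116 RefSeq promoters, each from 250 bases before to 50 bases after a start site, 24.5% held GCAAT, 6.3% ATCAAT, 6.9% GTTAAT, 13.8% AGGTCA and 3.4% TGTTTAC. Among the other members with a RefSeq promoter, NR1H4 held a nuclear receptor, a C/EBP and a homeodomain half-site, FOXA3 held a nuclear receptor half-site, and FOXA1 and ONECUT1 held none of the motifs. FOXA2 and PROX1 had no entry. The CEBPA window had a GC content of 81.2% and 41 CpG dinucleotides, against 58.4% and 8 in the distal and 58.0% and 8 in the proximal HNF4A window. A match is a description of letters, and binding was not measured.

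The libraries held between 30148788 and 37096156 counts. TKT lay between 9390 and 9550 CPM (counts adjusted for library size with TMM factors) on overexpression and between 469 and 515 CPM in control cells, a 19.1-fold difference (adjusted p = 1.15e-25, edgeR). Of the hepatocyte markers, ALB lay between 2250 and 2380 FPKM (fragments per kilobase at a common library size) and AFP, the fetal albumin relative, between 2570 and 2750 FPKM. APOB, a defining hepatocyte gene, had at most 6 counts in a library. The 11 markers of fibroblasts, endothelium and leukocytes that had a row summed to between 18.6 and 21.8 CPM on overexpression and between 19.3 and 22.7 CPM in control cells, and 0 of the 3 tested passed the edgeR test (0 at an unadjusted p under 0.05, and 0 by DESeq2). Of these markers PECAM1 (15.3 to 20.5 CPM) and PDGFRB (1.13 to 2.76 CPM) exceeded 1 CPM.

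Across the 8 factors the response was split. FOXA2 and PROX1 rose, HNF4A and CEBPA fell, and NR1H4, FOXA1, FOXA3 and ONECUT1 did not pass the test (edgeR's quasi-likelihood test, Benjamini-Hochberg adjusted p under 0.05 over all tested genes). The 4 called members compare with 10.6% of all tested genes called, 5.69% higher and 4.94% lower, and with 17.8% (7.75% higher, 10.1% lower) among the 5420 genes at least as abundant as ONECUT1, the least abundant member by CPM. No member changed by more than 1 on the log2 scale, a size that 103 genes (0.727%) reached with an adjusted p under 0.05. The median log2 fold change of the 8 was 0.087, against 0.001 for all tested genes. For 5 members the library values of the groups did not overlap, 2 higher and 3 lower, where 28.0% of all tested genes (14.1% higher, 13.9% lower) and 37.6% of those at least as abundant as ONECUT1 did not overlap. In bulk RNA, fewer cells with a factor and less of its RNA per cell cannot be told apart.

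**Figure D1:**
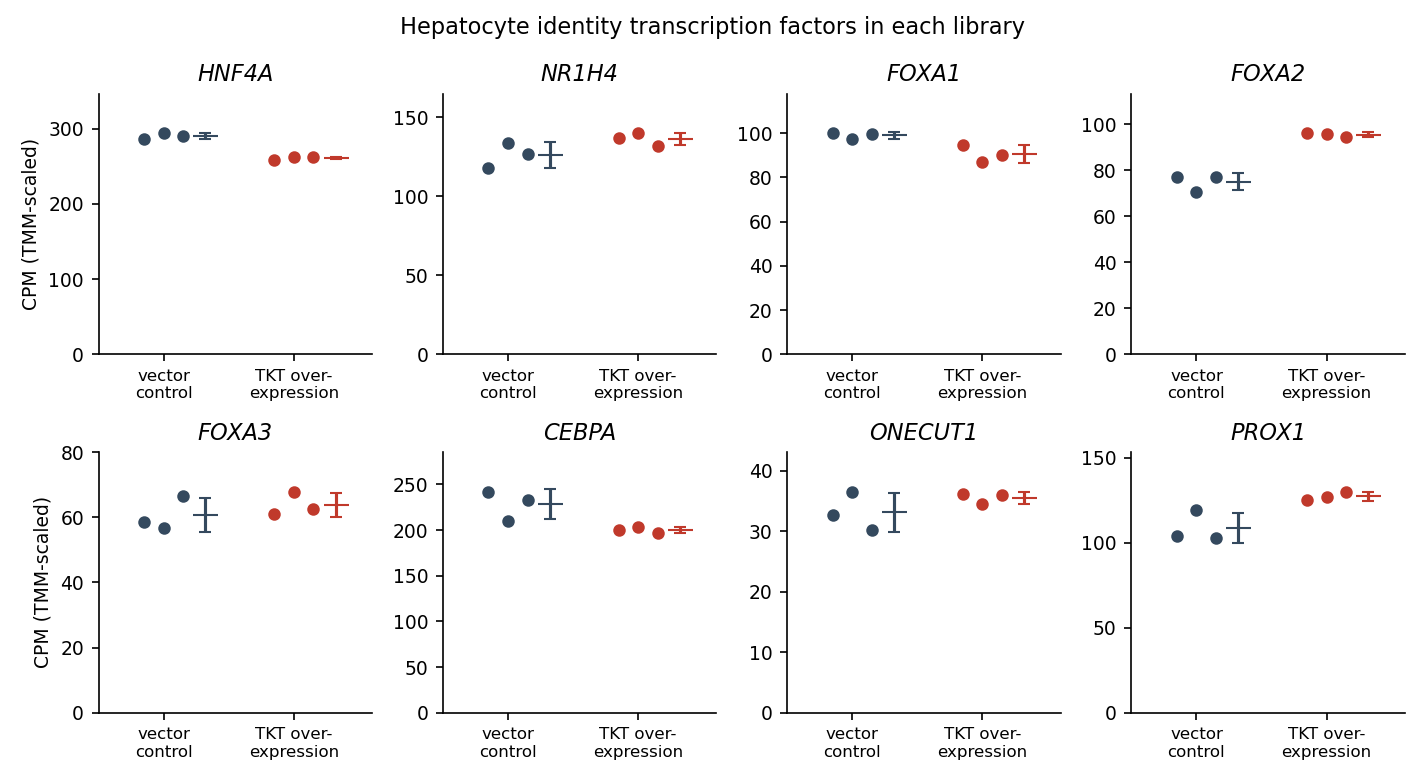
CPM of each of the 8 factors in the 6 libraries (vertical axes, CPM scaled by TMM; points, libraries; bars, mean ± SD, n = 3 each). FOXA2 and PROX1 were higher in all 3 TKT-overexpressing libraries, HNF4A, FOXA1 and CEBPA were lower in all 3, and the libraries of NR1H4, FOXA3 and ONECUT1 overlapped.

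**Figure D2:**
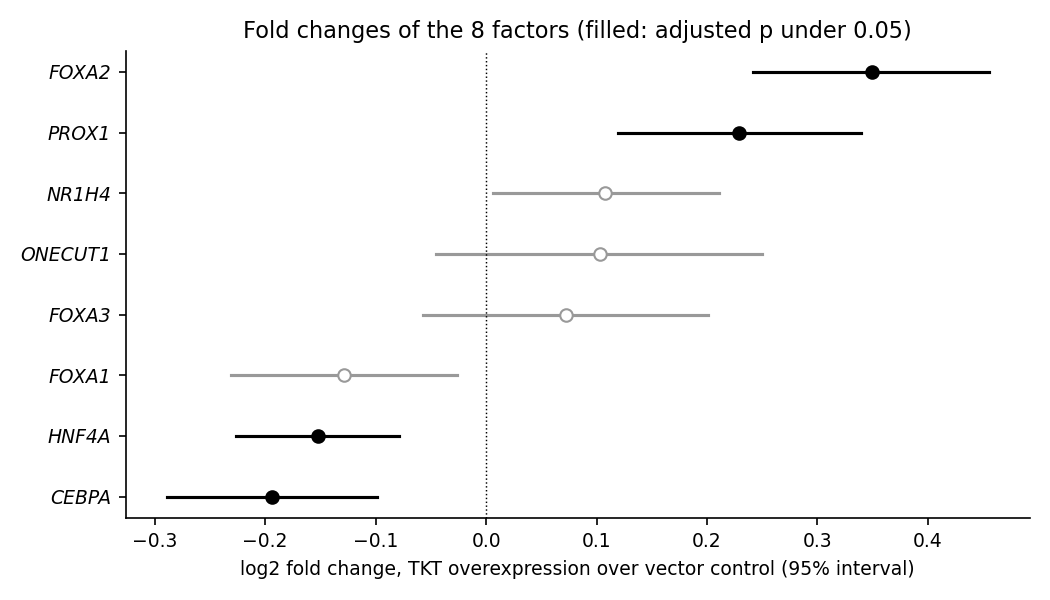
log2 fold change of each factor, TKT overexpression over control (horizontal axis), with its 95% interval from edgeR. Filled points, FOXA2 (0.35), PROX1 (0.23), HNF4A (-0.15) and CEBPA (-0.19), had an adjusted p under 0.05, and the interval of NR1H4 (0.11) also lay above 0 and that of FOXA1 (-0.13) below 0, without an adjusted p under 0.05.

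Of the nuclear receptors, HNF4A fell and NR1H4 did not pass the test. HNF4A lies at chr20:44355700-44434596 on the plus strand of GRCh38 (GENCODE 29, 9 transcripts, 8 of them coding) and had 9605, 8092 and 8617 counts on overexpression and 8978, 8927 and 9772 in control cells. Scaled to library size, it had 259, 262 and 262 CPM in the 3 TKT-overexpressing libraries and 286, 294 and 291 CPM in the 3 control libraries. Every overexpression library lay below every control library, and replicates were close together, 261 ± 1.71 CPM (SD, n = 3) against 290 ± 4.15 CPM (SD, n = 3). The log2 fold change was -0.15 (standard error 0.035, 95% interval -0.23 to -0.08, adjusted p = 0.0072, edgeR), which is 0.9 times the control level. Without TKT-overexpressing replicate 1 it was -0.15 with an adjusted p of 0.0555. The exact two-sided permutation test over libraries gave p = 0.1 for HNF4A, the smallest that 3 against 3 allow. A count per gene does not separate transcripts of the distal and proximal promoters.

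NR1H4, at chr12:100473708-100564413 on the plus strand, had 137, 140 and 132 CPM on overexpression and 118, 134 and 127 CPM in control cells. The groups overlapped in that control replicate 2 exceeded TKT-overexpressing replicate 3. The log2 fold change was 0.11 (standard error 0.05, 95% interval 0.006 to 0.21, adjusted p = 0.183, edgeR). The estimate depended on single control libraries. Without control replicate 2 the log2 fold change was 0.16 with an adjusted p of 0.0444 (edgeR). Without control replicate 1, the library with least NR1H4, it was 0.06 with an adjusted p of 0.595 (edgeR).

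The FOXA genes, 3 paralogues that bind the same forkhead motif, did not move together. FOXA2, at chr20:22581005-22585455 on the minus strand, had 96.0, 95.9 and 94.3 CPM on overexpression and 76.9, 70.7 and 77.2 CPM in control cells. The groups were well apart, and the overexpression libraries differed among themselves by less than 2 CPM. FOXA2 rose by 0.35 on the log2 scale (standard error 0.051, 95% interval 0.24 to 0.46, adjusted p = 8.6e-05, edgeR), to 1.27 times the control level. It passed the test under all 17 alternatives, with log2 fold changes between 0.31 and 0.39.

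FOXA1, at chr14:37589984-37596059 on the minus strand, went the other way in its values, with 94.7, 86.9 and 90.2 CPM on overexpression and 100, 97.2 and 99.8 CPM in control cells. All overexpression libraries lay below all control libraries, but the log2 fold change of -0.13 (standard error 0.049, 95% interval -0.23 to -0.03) did not pass the test (adjusted p = 0.105, edgeR). FOXA3, at chr19:45863989-45873797 on the plus strand, had 61.0, 67.8 and 62.4 CPM against 58.6, 56.8 and 66.5 CPM. Its groups overlapped, and the log2 fold change was 0.07 (standard error 0.062, 95% interval -0.06 to 0.20, adjusted p = 0.544, edgeR).

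The FOXA2 to FOXA1 balance was read within each library, where library scaling cancels. This and the other ratios were chosen after the values were seen. FOXA2 had 1.01, 1.10 and 1.05 counts for each FOXA1 count on overexpression and 0.769, 0.727 and 0.773 in control cells. The ratio was higher in every TKT-overexpressing library than in any control library, and its mean was 1.39 times the control mean. These ratios pair members already seen to differ in opposite directions, so they are given without a test. On the per-length FPKM scale, FOXA2 made up 41.0% ± 0.352 of the summed FOXA level on overexpression, against 35.1% ± 0.814 in control cells (SD, n = 3 each). FOXA1 made up 24.0% ± 1.23 and 28.6% ± 1.02 (SD, n = 3 each), without overlap, and FOXA3 35.0% ± 1.58 and 36.3% ± 1.52 (SD, n = 3 each), with overlap. The summed FOXA level was 85.4 ± 0.265 FPKM on overexpression and 78.1 ± 3.16 FPKM in control cells (SD, n = 3 each). The shares and the sum depend on the length used. The FPKM values imply 4429 bases for FOXA1, where its longest coding transcript in GENCODE 29 has 2862. Per kilobase of each gene's longest coding transcript, FOXA1 had 34.6, FOXA2 30.9 and FOXA3 30.5 CPM in control cells. On overexpression FOXA1 had 31.7, FOXA2 39.4 and FOXA3 32.1 CPM per kilobase.

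CEBPA fell. It is an intronless gene at chr19:33299934-33302564 on the minus strand and had 200, 203 and 197 CPM on overexpression and 242, 210 and 233 CPM in control cells. All overexpression libraries lay below all control libraries, but the control libraries were widely spread, 228 ± 16.7 CPM (SD, n = 3) against 200 ± 3.19 CPM (SD, n = 3). The log2 fold change was -0.19 (standard error 0.045, 95% interval -0.29 to -0.10, adjusted p = 0.00828, edgeR), 0.874 times the control level. Without control replicate 1, the library with most CEBPA, the log2 fold change was -0.15 and the adjusted p 0.0784. CEBPA transcripts have a GC content of 65.9%, above that of 97.3% of tested genes. The median-centred trend of a library's log2 CPM at the GC content and length of CEBPA was 0.054, -0.013 and 0.070 (log2) in control replicates 1, 2 and 3, and -0.023, -0.010 and -0.073 in TKT-overexpressing replicates 1, 2 and 3. With these trends removed, an alternative chosen after seeing the data, the log2 fold change of CEBPA was -0.12 (adjusted p = 0.0108, edgeR), and the cause of the shift was not tested. Of the CEBPA exon, 25.05% overlaps the opposite-strand transcript AC008738.3 and 18.32% AC008738.5, neither of which had a row in the table, and whether counting used strand is not given in the sources used here.

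Of the developmental homeodomain factors, PROX1 rose and ONECUT1 did not pass the test. PROX1, at chr1:213983181-214041502 on the plus strand, had 125, 127 and 130 CPM on overexpression and 104, 119 and 103 CPM in control cells. Every overexpression library lay above every control library, with control replicate 2 nearest to them. The log2 fold change was 0.23 (standard error 0.053, 95% interval 0.12 to 0.34, adjusted p = 0.00697, edgeR), 1.17 times the control level. Without control replicate 1 it was 0.20 with an adjusted p of 0.0615. PROX1 transcripts have a GC content of 40.7%, below most tested genes, and the library trend at their GC content and length was 0.052 in control replicate 2 against -0.031 and -0.037 in control replicates 1 and 3. With the trends removed, the log2 fold change of PROX1 was 0.22 (adjusted p = 0.000285, edgeR). The antisense gene PROX1-AS1 shares 1.92% of the PROX1 exon bases and had at most 4.956 CPM.

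ONECUT1, at chr15:52756989-52791078 on the minus strand, had 36.2, 34.4 and 36.0 CPM on overexpression and 32.6, 36.5 and 30.2 CPM in control cells. The groups overlapped through control replicate 2, and the log2 fold change of 0.10 (standard error 0.071, 95% interval -0.05 to 0.25) did not pass the test (adjusted p = 0.423, edgeR). Its interval leaves room for a rise as large as that of PROX1.

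Set against HNF4A within each library, PROX1 had 0.488 ± 0.00817 counts per HNF4A count on overexpression and 0.374 ± 0.0268 in control cells (SD, n = 3 each), 1.3 times the control ratio. FOXA2 had 0.365 ± 0.00528 counts per HNF4A count against 0.258 ± 0.0156 (SD, n = 3 each), 1.41 times the control ratio. For both ratios every overexpression library exceeded every control library, which the choice of members fixes. The CPM of the 8 factors summed to 1010 ± 6.76 on overexpression and 1020 ± 5.92 in control cells (SD, n = 3 each).

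Levels of different genes were compared on the per-length FPKM scale. In control cells the order was CEBPA (87.3 ± 5.71 FPKM), NR1H4 (34.6 ± 2.5), HNF4A (28.4 ± 0.6), FOXA3 (28.3 ± 2.23), FOXA2 (27.4 ± 1.13), FOXA1 (22.3 ± 0.173), PROX1 (12.2 ± 1.1) and ONECUT1 (5.39 ± 0.569; SD, n = 3 each). HNF4A and FOXA3 overlapped there, as did FOXA3 and FOXA2, and the other neighbours did not. On overexpression FOXA2 stood behind CEBPA and NR1H4 at 35.0 ± 0.199 FPKM and HNF4A stood ahead of FOXA1 at 25.6 ± 0.379 FPKM (SD, n = 3 each), with FOXA3 between them at 29.9 ± 1.44 FPKM (SD, n = 3), and no neighbours overlapped. CEBPA remained first at 76.6 ± 0.268 FPKM and ONECUT1 last at 5.8 ± 0.226 FPKM (SD, n = 3 each). The order depended on the length used. The FPKM values imply 10202 bases for HNF4A and 6131 for ONECUT1, where the longest coding transcript in GENCODE 29 has 6445 and 2092. Per kilobase of that transcript, HNF4A stood second in control cells at 45.0 CPM, overlapping NR1H4 at 43.8, and ONECUT1 at 15.8 stood above PROX1 at 12.8. On overexpression HNF4A at 40.5 CPM per kilobase stood above FOXA2 at 39.4, without overlap, the reverse of their FPKM order. Over all 6 libraries, 24 of the 28 pairs of members kept the order that FPKM gave.

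**Figure D3:**
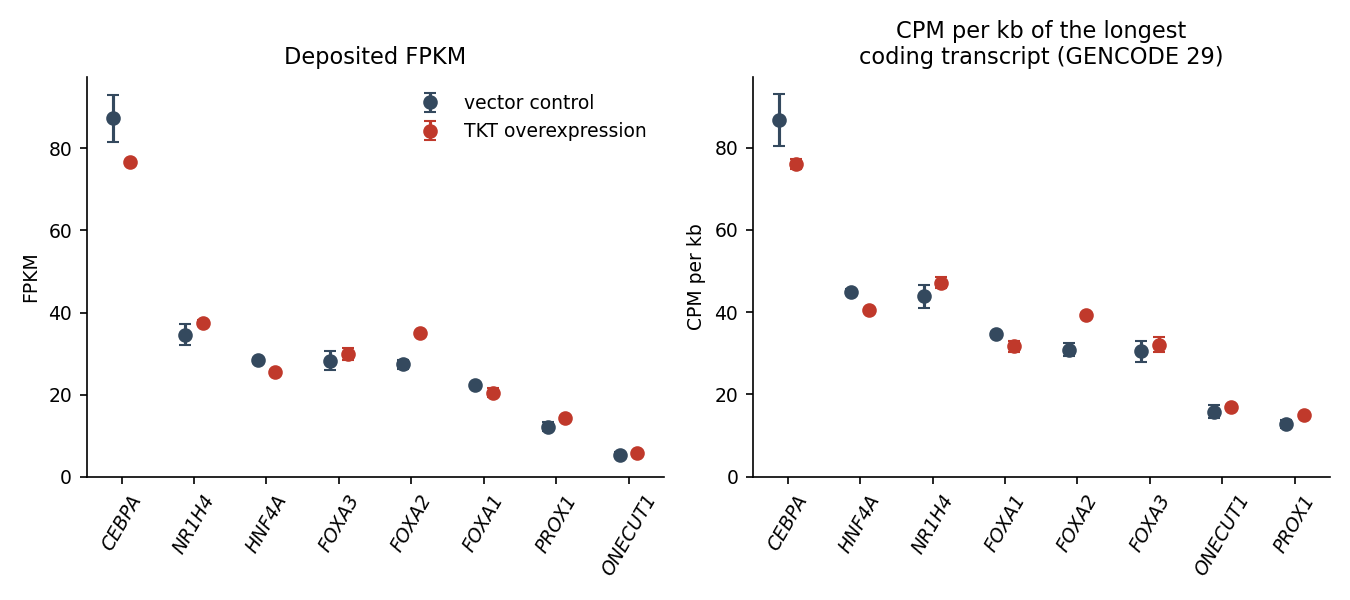
Level of each of the 8 factors by group as FPKM (left panel) and as CPM per kilobase of the longest coding transcript (right panel), points and bars being the mean ± SD (n = 3 each). CEBPA was highest on both scales. On overexpression FOXA2 (35.0 FPKM) stood above FOXA3 (29.9 FPKM) and HNF4A (25.6 FPKM) in the left panel. In the right panel HNF4A (40.5 CPM per kilobase) stood above FOXA2 (39.4 CPM per kilobase).

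For each member that rose or fell, the 3 tested genes with the most similar values across the 6 libraries were found among 9126 genes whose log2 CPM averaged 3 or more, by the root mean square (RMS) difference of log2 CPM centred on each gene. Nearest to FOXA2 was FGL1, a fibrinogen-like protein secreted by hepatocytes, with 84.6, 85.1 and 84.2 CPM on overexpression and 67.6, 62.2 and 66.9 CPM in control cells (RMS difference 0.0132). FGL1 was followed by MCU, the mitochondrial calcium uniporter (0.0169), and STX3, a syntaxin of membrane fusion (0.0223). Nearest to HNF4A were ICMT, a methyltransferase of prenylated proteins (0.0087), SMARCC1, a subunit of the SWI/SNF remodeller (0.0142), and PNRC2, a nuclear receptor coactivator and mRNA decay factor (0.0144). ICMT had 208, 207 and 209 CPM against 227, 236 and 233 CPM. Nearest to PROX1 were CHML, a Rab escort protein (0.0162), SUCO (0.0222) and GORAB, a golgin (0.023), and nearest to CEBPA were OGFOD3 (0.0196), GMCL1 (0.0242) and FAM222A (0.0254). The 3 nearest to CEBPA did not pass the edgeR test (adjusted p between 0.0563 and 0.171), nor did GORAB (adjusted p = 0.163, edgeR). Likeness over 6 libraries is a description.

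Around the 8 factors, the other transcription factors and cofactors of the hepatocyte network rose where they moved. Of 30 listed genes 27 were tested, 5 rose, 0 fell by the edgeR test (2 were lower at an unadjusted p under 0.05, and 0 fell by DESeq2) and 22 did not pass. That is 18.5% called, against 10.6% of all tested genes and 17.8% of those at least as abundant as ONECUT1, with a median log2 fold change of 0.11 against 0.001 for all tested genes. CEBPD, a C/EBP family member of the acute phase response, had 79.0, 82.3 and 76.2 CPM against 58.0, 55.2 and 50.1 CPM, a rise of 0.54 on the log2 scale (adjusted p = 1.43e-06, edgeR). Its relatives thus differed, with CEBPA lower and CEBPB, another acute phase factor, at a log2 fold change of 0.035 (adjusted p = 0.748, edgeR). NR3C1, the glucocorticoid receptor, rose by 0.48 (adjusted p = 0.000385), and NR5A2, the nuclear receptor LRH-1 of bile acid and cholesterol genes, by 0.40 (adjusted p = 0.000121, edgeR). HHEX, a homeobox factor of liver bud growth, rose by 0.18 (adjusted p = 0.0123) and CREB3L3, a hepatocyte bZIP factor, by 0.17 (adjusted p = 0.0312, edgeR). Without TKT-overexpressing replicate 1 the count of rises in this list was 3.

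Genes that these factors are known to drive in hepatocytes moved in both directions. Of 40 listed effector genes 32 were tested, 6 rose, 3 fell and 23 did not pass the edgeR test (28.1% called, against 10.6% of all tested genes and 17.8% of those at least as abundant as ONECUT1; median log2 fold change 0.049). The genes of all 3 fibrinogen chains, clotting proteins made by hepatocytes, rose. FGB had 820, 826 and 808 CPM on overexpression and 569, 573 and 592 CPM in control cells, and rose by 0.50 on the log2 scale (adjusted p = 8.85e-10, edgeR). FGA rose by 0.50 (adjusted p = 9.49e-10) and FGG by 0.37 (adjusted p = 6.42e-07, edgeR). APOH, the plasma protein beta-2 glycoprotein I, rose by 0.30 (adjusted p = 4.81e-05) and SLC2A2, the hepatocyte glucose transporter, by 0.19 (adjusted p = 0.0346, edgeR). Among the genes that fell were ASGR2, a subunit of the asialoglycoprotein receptor, with a log2 fold change of -0.17 (adjusted p = 0.0115), and APOA2, an apolipoprotein of high density lipoprotein, with -0.13 (adjusted p = 0.0274, edgeR). ALB, the most abundant member of the list, had 8010, 8150 and 8070 CPM against 7800, 7830 and 8110 CPM, which overlap (log2 fold change 0.029, adjusted p = 0.699, edgeR), and AMBP, a plasma protein precursor, had a log2 fold change of 0.042 (adjusted p = 0.658, edgeR). Without control replicate 1 the list had 5 calls, 4 higher and 1 lower, and with GC and length trends removed it had 15, 10 higher and 5 lower.

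The genes of bile acid handling around NR1H4 included its target FGF19, a hormone that represses bile acid synthesis. FGF19 had 143, 152 and 137 CPM on overexpression and 81.7, 87.6 and 79.0 CPM in control cells, and rose by 0.80 on the log2 scale, to 1.74 times the control level (standard error 0.052, adjusted p = 3.85e-10, edgeR). FGFR4, the receptor of FGF19, was lower, with 723, 747 and 700 CPM against 813, 797 and 831 CPM (log2 fold change -0.17, adjusted p = 0.00326, edgeR). Of the 20 listed genes 16 were tested, 3 rose, 1 fell and 12 did not pass (median log2 fold change 0.13), where 10.6% of all tested genes were called and 17.8% of those at least as abundant as ONECUT1. The other rises were KNG1, the kininogen gene (0.24, adjusted p = 0.00858), and ABCC2, the canalicular conjugate export pump (0.15, adjusted p = 0.012, edgeR). SDC1, a proteoglycan gene, had a log2 fold change of -0.12 (adjusted p = 0.0541, edgeR). NR0B2 (SHP), another NR1H4 target, named after its values were seen, had between 1.38 and 2.31 CPM in the 6 libraries, and its log2 fold change of 0.31 did not pass the test (adjusted p = 0.527, edgeR). SLC51B and SLC51A, genes of the same list also named after their values were seen, had more counts than NR0B2 and did not pass either. SLC51B had between 15.8 and 21.3 CPM and a log2 fold change of 0.016 (adjusted p = 0.951, edgeR). For SLC51A it was 0.041 (adjusted p = 0.899, edgeR). NR1H4 itself did not pass, as given above.

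Of 20 fetal liver and biliary genes 15 were tested, 3 rose, 0 fell by the edgeR test (1 was lower at an unadjusted p under 0.05, and 1 fell by DESeq2) and 12 did not pass (median log2 fold change 0.036). These 3 of 15 stand beside 17.8% called among genes at least as abundant as ONECUT1 and 10.6% among all tested genes. SPP1, the osteopontin gene, rose by 0.57 on the log2 scale (adjusted p = 0.000214), SOX4, a partner of SOX9 in bile duct development, by 0.25 (adjusted p = 0.00012), and PROM1, the CD133 gene, by 0.17 (adjusted p = 0.0166, edgeR). AFP, CD24 and GPC3, the most abundant genes of the list, did not pass, with log2 fold changes of 0.053, -0.083 and -0.051 (adjusted p of 0.415, 0.134 and 0.389, edgeR).

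The 8 fold changes were recomputed under 17 alternatives each, and no direction changed for any member. FOXA2 passed the test in 17, HNF4A in 15, PROX1 in 14 and CEBPA in 13 of these, NR1H4 in 1, and FOXA1, FOXA3 and ONECUT1 in 0. The log2 fold change of HNF4A ranged from -0.16 to -0.14 over the alternatives, the narrowest range among the 4 called members.

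**Figure D4:**
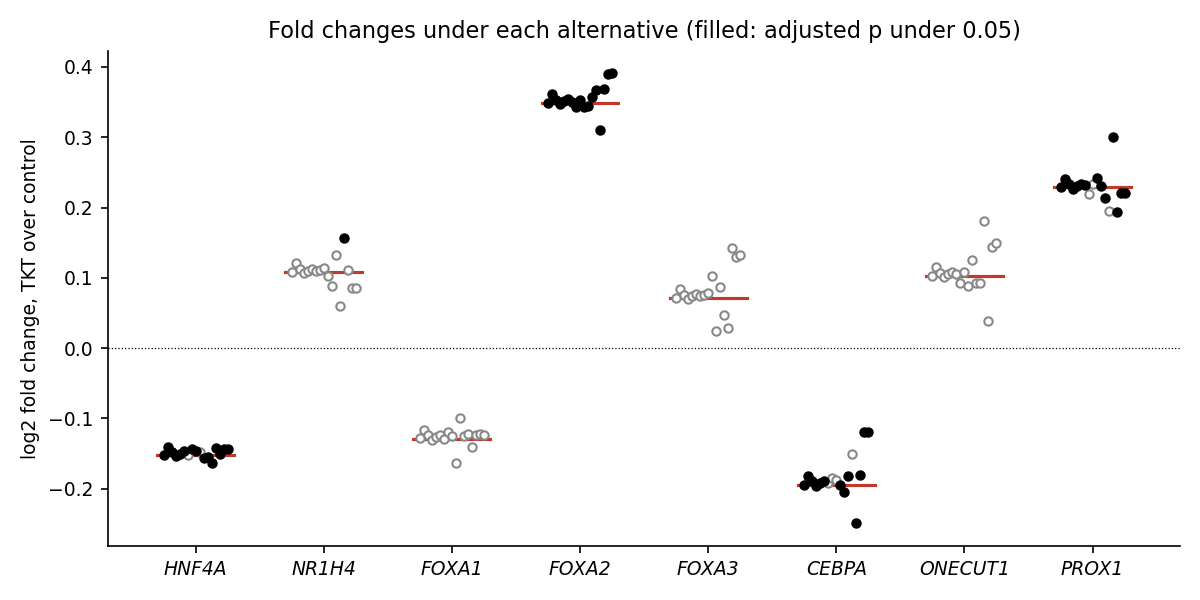
log2 fold change of each factor under each alternative (points; filled, adjusted p under 0.05) and as reported (lines). Points of every factor stay on the side of 0 on which the reported value lies, and those of CEBPA reach from -0.25 to -0.12.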

How the data were processed

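RNA from 3 TKT-overexpressing and 3 vector control samples was sequenced (paired-end). According to the submitters' processing notes and the study's methods, the authors trimmed reads with fastp 0.22.0, aligned them to hg38 with HISAT2 2.1.0 and counted them with featureCounts. They deposited whole-number counts per gene symbol and FPKM values. The annotation, the strand setting and the treatment of multi-mapping reads are not given in the sources used here. Columns named TKT and VC were matched to the sample titles.

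From the counts, TMM factors, a filter (filterByExpr, minimum count 10) and the quasi-likelihood test were computed in edgeR 4.0.16 (R 4.3.3) on all tested genes, without a replicate block, with Benjamini-Hochberg adjustment. The common biological coefficient of variation was 0.113. Totals were 30148788 to 37096156 counts. A permutation test of 3 against 3 cannot go below p = 0.1. The study's fold threshold (absolute log2 fold change over 1) was applied to the edgeR calls as an alternative, and DESeq2 was run without it.

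Members and lists were chosen with earlier results of these data known. Named were the 8 members, TKT, per list at most 5 called genes per direction by smallest p and the 3 with the highest mean FPKM, the 3 nearest profiles of each called member, and other-cell markers over 1 CPM. Markers that check the cell line and genes said to be named after their values were seen come in addition, and some genes that the rule names are not reported here. Alternatives were DESeq2 1.42.0, other scalings and filters, limma 3.58.1 on log2(FPKM + 1) and log2(FPKM + 0.1), a replicate block, each library left out and, chosen after seeing the data, removal of GC content and length trends (values for 99.8% of tested genes) and another length for levels. Scripts were tested on simulated counts. Replicates were compared, and none differed by less than sampling noise (chi-square per degree of freedom from 7.27 to 10.0).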

Additional observations from a re-analysis of the deposited data

How the results depend on the processing

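Of 153 fold changes of the 8 members and TKT recomputed under alternatives, 143 kept their direction and their side of the threshold, and 0 reversed. With the replicate number as a block, 697 genes and 2 of the 8 members were called, as were 3 network partners, 5 hepatocyte effectors and 2 bile acid genes, with HNF4A at -0.15 (adjusted p = 0.0627) and CEBPA at -0.19 (adjusted p = 0.0561, edgeR). Libraries of the same number did not deviate together (correlations of -0.00192, -0.0252 and 0.0156 over genes), and not every library correlated best with its own number. These correlations cannot show whether samples of the same number were prepared together, which no source used here gives. With limma on log2(FPKM + 1), 827 genes and 2 members were called, CEBPA being at -0.19 (adjusted p = 0.0566) and PROX1 at 0.22 (adjusted p = 0.0786). With limma on log2(FPKM + 0.1), 826 genes and 2 members were called, CEBPA being at -0.19 (adjusted p = 0.0528) and PROX1 at 0.23 (adjusted p = 0.0744). With GC content and length trends removed, 15 hepatocyte effectors were called. With an absolute log2 fold change over 1, 103 genes were called. The cause of these shifts was not tested.

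With each library left out in turn, calls ranged from 791 to 1586 over all genes, from 2 to 5 over the members, from 3 to 5 over network partners, from 5 to 10 over hepatocyte effectors, from 3 to 5 over bile acid genes and from 2 to 4 over fetal and biliary genes. The log2 fold changes then ranged from -0.16 to -0.14 for HNF4A, from -0.25 to -0.15 for CEBPA, from 0.19 to 0.30 for PROX1 and from 0.06 to 0.16 for NR1H4. For members that did not pass in any of these fits, they ranged from 0.025 to 0.14 for FOXA3, from 0.038 to 0.18 for ONECUT1 and from -0.16 to -0.099 for FOXA1. The low counts over all genes came without TKT-overexpressing replicate 1 (791) and without control replicate 1 (881). Fits with fewer libraries have fewer degrees of freedom. Scalings moved the median of all genes by at most 0.013.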

Other observations

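RXRB, a dimerisation partner of NR1H4, had 2 counts in all 6 libraries together, while RXRA, another such partner, had between 3093 and 3750 counts in a library. RXRB lies at chr6:33193588-33200688. Of the 58 protein-coding genes (GENCODE 29) with a row from TRIM27 to KIFC1 (chr6:28903002-33409924, GRCh38), the region of the major histocompatibility complex, 48 (82.8%) had a mean of at most 10 counts, and their median of mean counts was 1.3. On the rest of chromosome 6 this was so for 130 of 663 genes (19.6%), with a median of 442.8. BAG6, FLOT1 and VPS52, genes used by most cells, had at most 9, 2 and 1 counts in a library there. The RXRB count was not read as its expression level, and the cause of the low counts was not tested. This window was chosen after the RXRB counts were seen.

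APOB had at most 6 counts in a library, while MTTP, which loads lipid onto its product, had between 4541 and 5365. The APOB count was not read as its expression level either, and the cause of its low counts was not tested. The biliary keratins KRT7 and KRT19 had at most 2 and 6 counts in a library, and SOX9, a biliary and progenitor factor, lay between 40.0 and 42.7 FPKM.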
